A study of Mus musculus with 13 samples.

Results

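Heat shock proteins are molecular chaperones, and 10 of their genes in the cytosol and the mitochondrial matrix were followed here in C2C12 cells, an established mouse myoblast line. The genes were Hspa1a, Hspa1b, Hspa8, Hsp90aa1, Hsp90ab1, Hspb1, Hsph1, Hspd1, Hspe1 and Dnajb1. They were taken by name, by a rule that uses no value of theirs but was written with earlier results of these data known, and all 10 were found among the 23236 rows of the authors' gene table. All 10 had status OK, a locus of their own and a mean of at least 1 FPKM, the filter that 11792 rows passed. FPKM counts fragments per length of transcript and per depth of the library, so levels can be compared between genes on this scale.

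The series holds 13 libraries of C2C12 cells, 4 labelled as RNA-seq and the others as ChIP-seq or its IgG controls, and 2 of the RNA-seq libraries are used here. Their labels, siNC and siLinc-Yy1, read as a control siRNA and an siRNA against the long noncoding RNA Linc-Yy1. Both are described as poly(A)-selected RNA of myoblasts, the growing stage of the line, kept in DMEM with fetal bovine serum, and no other allele or agent is named. The sources used here do not give the siRNA dose or the time after transfection. With a single library per condition there was no replicate and no test between conditions, and all values describe this pair of libraries. The targeted row, lincYy1, stood at 0.360 FPKM in the control and 0.227 FPKM in the knockdown library. By the length of its locus these were at most about 25 and 11 fragments, and the 95% exact interval of the ratio from counting error ran from 0.273 to 1.30, so the level of the target does not check the label. All 8 myoblast and muscle markers passed the filter, with summed levels of 715 and 919 FPKM, while the 9 markers of other cell types found in the table reached at most 0.186 FPKM. In bulk RNA, fewer cells that express a gene and less of its RNA per cell cannot be told apart.

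Chaperones bind unfolded or newly made proteins and keep them from aggregating. HSP70 proteins do so in cycles of ATP hydrolysis that J-domain proteins such as Dnajb1 start and exchange factors such as Hsph1 reset, HSP90 proteins act later on kinases and receptors, and small heat shock proteins such as Hspb1 hold unfolded chains without ATP. Each cytosolic family has members that heat shock factor HSF1 induces strongly under stress and members that are abundant without it. In the grouping used here the inducible genes are Hspa1a, Hspa1b, Dnajb1, Hsph1, Hsp90aa1 and Hspb1, and the constitutive ones are Hspa8 and Hsp90ab1. Hspd1 (HSP60) and Hspe1 (HSP10) encode the chaperonin of the mitochondrial matrix and form a group of their own. HSF1 binds heat shock elements, inverted repeats of the unit GAA.

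The promoters are shown first because Hspa1a and Hspa1b, the genes with the lowest ratios, are near-identical copies, and because Hspd1 and Hspe1 share their control region. RefSeq promoters (build GRCm38.p6, whereas the deposited table uses mm9) were matched by symbol for 7 of the 10 genes. No entry was matched for Hspa8, Hsp90aa1 and Hsp90ab1. Only the 250 bases before the start site were read, written 5′ to 3′ along the gene, with capitals for each match to a pair of facing units, GAANNTTC or TTCNNGAA, where N is any base. Each of these patterns is its own reverse complement, and the longer ones given further on are each other's, so both strands were searched. Hspa1a lies at chr17:34972157-34972406, minus strand, Hspa1b at chr17:34959239-34959488, minus strand, and Hspb1 at chr5:135887669-135887918, plus strand.
Hspa1a: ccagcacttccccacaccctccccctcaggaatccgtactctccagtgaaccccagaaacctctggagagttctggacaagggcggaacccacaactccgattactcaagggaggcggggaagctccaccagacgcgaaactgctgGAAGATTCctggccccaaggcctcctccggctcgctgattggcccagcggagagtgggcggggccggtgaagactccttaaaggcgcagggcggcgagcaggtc
Hspa1b: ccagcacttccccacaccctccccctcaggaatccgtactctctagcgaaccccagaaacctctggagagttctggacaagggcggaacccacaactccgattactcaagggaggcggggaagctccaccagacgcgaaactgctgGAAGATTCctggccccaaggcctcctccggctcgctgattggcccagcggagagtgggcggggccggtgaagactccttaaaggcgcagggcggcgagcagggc
Hspb1: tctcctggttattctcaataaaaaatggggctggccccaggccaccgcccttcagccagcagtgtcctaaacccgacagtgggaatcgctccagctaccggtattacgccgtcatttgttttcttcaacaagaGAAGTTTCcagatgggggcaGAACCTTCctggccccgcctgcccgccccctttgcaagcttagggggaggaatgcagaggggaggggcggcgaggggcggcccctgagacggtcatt

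The Hspa1a and Hspa1b promoters were 98.8% identical, 247 of 250 bases. Counted from the 5′ end of the printed stretch, with the base of Hspa1a first, the differences were C44T, T47C and T249G. The match lay at the same place in both, 104 to 97 bases before the start. Hspb1 had a pair of matches, at 117 to 110 and at 97 to 90 bases before the start.

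Hspd1 and Hspe1 face away from each other, and in the deposited table their loci are 215 bases apart. A single stretch at chr1:55088053-55088082 lies before the Hspe1 start (plus strand) and before 1 of the 2 Hspd1 starts (minus strand). It is shown from both sides, as a row of 3 units matches it at 2 overlapping places, and beside it the match of Hsph1 at chr5:149636351-149636380, minus strand.
Hspe1: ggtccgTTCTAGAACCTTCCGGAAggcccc
Hspd1: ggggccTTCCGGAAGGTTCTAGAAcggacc
Hsph1: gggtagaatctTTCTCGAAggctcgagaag
The capitals ran from 89 to 72 bases before the Hspe1 start and from 144 to 127 bases before that Hspd1 start. For Hsph1 they lay 33 to 26 bases before the first of its starts in the RefSeq table.

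A pair of facing units was found in 6 of the 7 matched genes and not in Dnajb1. Of all 32851 promoters of the same length in the RefSeq table, 12.8% held one. That share is counted by promoter, whereas a gene counted with a match at any of its starts, so the 2 are not on the same footing. The first of the Hspd1 starts held no match. The 6 genes are also not independent cases, as Hspa1a and Hspa1b are near-identical copies and Hspd1 and Hspe1 share their stretch. The longer patterns, GAANNTTCNNGAA or TTCNNGAANNTTC, which contain the shorter ones, were found in Hspd1 and Hspe1 and in 0.466% of all promoters. For Hspd1 and Hspe1 this is a single stretch of DNA read from both sides. These matches describe letters in a window and not binding. Among rows past the filter, the 1006 genes with the shorter pattern had a median log2 fold change of -0.014, against -0.018 for all 8218 genes with a promoter in the table. The 40 genes with the longer pattern had a median of 0.044. Of the 9 other chaperone lists given further on, 89 genes past the filter had a promoter in the table. The 14 of them with the shorter pattern had a median of 0.14, against 0.023 for those without. These medians were not set against rows of like level, and whether the pattern bears on them was not tested.

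**Figure D1:**
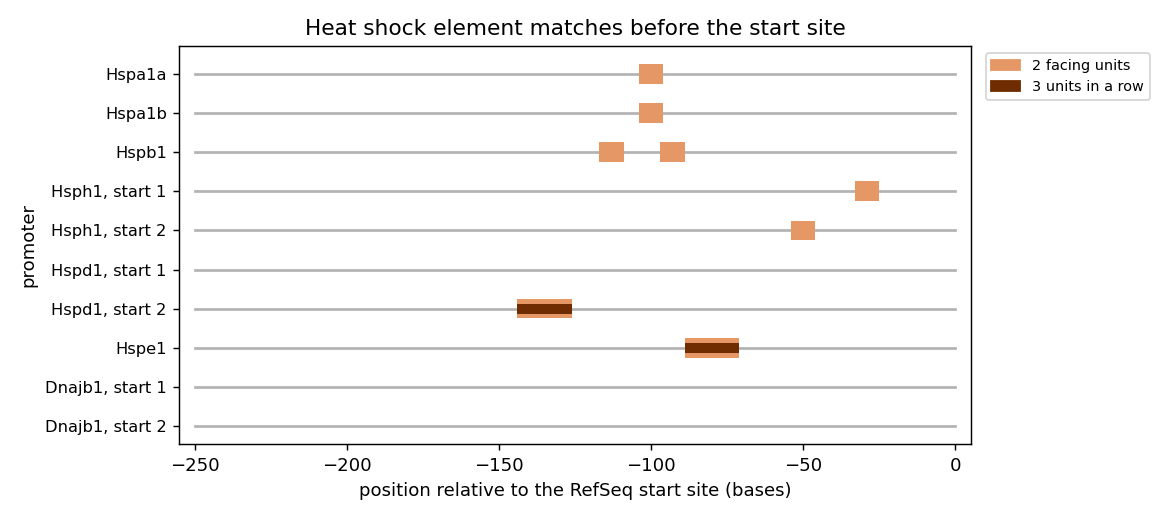
Matches to heat shock element patterns (boxes) in the 250 bases before each RefSeq start site of the 7 matched genes, with position in bases on the horizontal axis and 1 line per start site. Hspa1a and Hspa1b hold 1 match each at the same place, Hspb1 2 separate ones, and Hspd1 and Hspe1 the run of units that they share.

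The inducible HSP70 genes Hspa1a and Hspa1b were lower in siLinc-Yy1, while the abundant chaperones Hsp90ab1, Hspa8 and Hspb1 were higher. Changes are given as the ratio of the FPKM values, siLinc-Yy1 over siNC, and as the log2 fold change after 1 FPKM was added to each value. No member reached 2-fold in either direction, a size that 1.39% of all rows past the filter reached upward and 0.178% downward (1.57% in all). At 1.5-fold, 3 members were higher (3.28% of all rows) and 2 were lower (0.517% of all rows), together 5 of 10 against 3.8% of all rows. The 3 higher ones have a mean of 300 to 1000 FPKM, where the median log2 fold change of all rows was 0.71, itself beyond 1.5-fold. The 2 lower ones, Hspa1a and Hspa1b, are near-identical copies and not independent cases. The median log2 fold change of the 10 genes was 0.27, against -0.021 for all rows, and 6 were above 0 (45.4% of all rows were) and 4 below (54.6% of all rows). Setting the summed FPKM of both libraries equal shifted the median of all rows by -0.28 to -0.30 and turned that of the 10 genes to -0.055, which is 0.25 above the median of all rows.

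Hspa1a encodes the inducible cytosolic HSP70 and lies on chromosome 17 from 35106303 to 35109101 (mm9). Its level was 19.5 FPKM in siNC against 12.5 FPKM in siLinc-Yy1, a ratio of 0.641 and a log2 fold change of -0.60. Hspa1b, from 35093373 to 35096183, encodes a protein almost the same and measured 25.7 and 16.3 FPKM, a ratio of 0.634 and a log2 fold change of -0.63. Both genes were thus about equally lower in siLinc-Yy1, and Hspa1b stood at 1.32 times Hspa1a in siNC and at 1.30 times in siLinc-Yy1. Because fragments from such copies can match both, the authors' estimate had to divide them and the single values are uncertain. The sum of both depends less on that division, and it was 45.2 and 28.8 FPKM, a ratio of 0.637.

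Both genes have no intron, so their fragments can be estimated from the locus length and the FPKM that 1 fragment is worth, read from scarce single-exon rows of olfactory and other receptors. Hspa1a rested on about 3258 fragments in siNC and 1493 in siLinc-Yy1, and Hspa1b on about 4307 and 1951. The counting interval (95%, exact binomial) of the ratio was 0.602 to 0.682 for Hspa1a, 0.600 to 0.668 for Hspa1b and 0.612 to 0.663 for the sum. These intervals cover counting error only, not the spread between cultures. In the authors' deposited table both genes were called lower, with q-values of 0.0285 for Hspa1a and 0.0193 for Hspa1b. They were the 2 members called there, where 1.62% of the rows of status OK were called, 0.327% lower and 1.29% higher. With 1 library per condition, the authors' q-values do not measure the spread between cultures either. The calls and intervals of Hspa1a and Hspa1b are also not independent, as fragments can match both copies.

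Few genes of their level were as low. Hspa1a stood at the 0.466th and Hspa1b at the 0.416th percentile of the log2 fold changes of all rows past the filter. Among 3914 rows with a mean of 10 to 30 FPKM, 9 were at or below the value of Hspa1a, these 2 genes included. The direction held under every alternative tried for each gene, with log2 fold changes between -0.90 and -0.49 for Hspa1a and between -0.93 and -0.53 for Hspa1b.

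The neighbouring row Hspa1l, the third HSP70 gene of this cluster and known for expression in testis, begins 546 bases from the Hspa1a locus. It measured 3.47 and 2.42 FPKM, a log2 fold change of -0.39, and it was not called in the authors' deposited table (q-value of 0.397). Its sequence resembles that of Hspa1a and Hspa1b, so its low level may hold fragments of theirs, which was not tested. The 4 other rows within 20 kb of the pair were not lower in siLinc-Yy1. Lsm2, a gene of an RNA-binding protein, measured 65.0 and 76.0 FPKM, Neu1, a lysosomal sialidase, 5.39 and 5.67 FPKM, and 1110038B12Rik 74.1 and 74.8 FPKM. Snord52, a small nucleolar RNA row that shares the locus of 1110038B12Rik, was listed at 0 in siNC and stood at 6.73 FPKM in siLinc-Yy1.

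The co-factors of HSP70 among the inducible genes lay close together in both libraries. Dnajb1, the J-domain protein that delivers clients to HSP70 and starts its ATP hydrolysis (chromosome 8, 86132073 to 86135802), stood at 40.3 FPKM in siNC against 37.0 FPKM in siLinc-Yy1, a ratio of 0.919. Hsph1, an HSP110 protein that releases ADP from HSP70 (chromosome 5, 150419419 to 150438890), stood at 59.8 and then 59.1 FPKM, a ratio of 0.989. Their log2 fold changes were -0.12 and -0.016, and that of Hsph1 turned to 0.0047 when all values were centred on the median row. Under rescaling to equal sums the log2 fold changes were -0.43 for Dnajb1 and -0.33 for Hsph1. Set against rows of like level, as given further on, they were -0.17 and -0.15. Neither gene was as low as Hspa1a and Hspa1b under any of these settings.

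Hspb1 (HSP25 in mouse), a small heat shock protein that also binds actin filaments, differed from the other inducible genes. It lies on chromosome 5 from 136363788 to 136365433, and its level was 375 FPKM in siNC against 674 FPKM in siLinc-Yy1, a ratio of 1.80 and a log2 fold change of 0.85. In the authors' deposited table its p-value was 0.00672 and its q-value 0.202, so it was not called. Hspb1 was thus the inducible gene with the highest level and the highest ratio, and the only one of the 6 beyond 1.5-fold upward.

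Hsp90aa1, the inducible cytosolic HSP90 (chromosome 12, 111929245 to 111934605), stood at 236 and 304 FPKM, a ratio of 1.29 and a log2 fold change of 0.36. Its constitutive partner Hsp90ab1 (chromosome 17, 45704726 to 45710210) stood at 587 FPKM in siNC against 1155 FPKM in siLinc-Yy1, a ratio of 1.97 and a log2 fold change of 0.98. This was the highest ratio of the 10 genes, and the authors' deposited table gave it a q-value of 0.998.

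Hspa8, the constitutive HSP70 that also strips clathrin from vesicles (chromosome 9, 40609355 to 40613282), stood at 562 FPKM in siNC against 961 FPKM in siLinc-Yy1. Hspa8, Hsp90ab1, Hspd1 and Hspe1 have processed copies elsewhere in the genome that can share their reads, so their values are uncertain to that extent. The ratio of Hspa8 was 1.71 and its log2 fold change 0.77, with a q-value of 0.987 in the authors' deposited table. The constitutive pair, at ranks 32 (Hsp90ab1) and 37 (Hspa8) among all rows in siNC, thus had a median log2 fold change of 0.87, against -0.067 for the 6 inducible genes. Of the inducible genes, 2 were above 0 and 4 below. The groups also differed in level, and Hspb1, the inducible gene nearest the pair in level, had a log2 fold change of 0.85. Set against rows of like level, the medians were 0.15 for the constitutive pair and -0.16 for the inducible genes. The direction of the former turned with the window used, as given further on. Counting Hspa1a and Hspa1b as 1 gene by their sum, an alternative added after the values were seen, moved the inducible median to -0.016.

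The mitochondrial pair was closer to unity. Hspd1, the barrel of the chaperonin (chromosome 1, 55134677 to 55144776), stood at 147 and 165 FPKM, a ratio of 1.12. Hspe1, its lid (chromosome 1, 55144991 to 55148161), stood at 157 and 206 FPKM, a ratio of 1.31, with a q-value of 0.521 in the authors' deposited table. Hspe1 stood at 1.07 times Hspd1 in siNC and at 1.25 times in siLinc-Yy1, a difference that was not tested.

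Outside the Hspa1a and Hspa1b cluster, 7 rows past the filter lay within 20 kb of a member, 4 of them higher and 3 lower. Near Hsp90ab1, Slc35b2 of a Golgi transporter measured 23.3 and 21.4 FPKM, Nfkbie, an inhibitor of NF-kappaB, 4.40 and 5.40 FPKM, and the nucleoside transporter Slc29a1 102 and 112 FPKM. Ywhag, a 14-3-3 protein near Hspb1, measured 106 and 142 FPKM, and Tecr, an enzyme of fatty acid elongation near Dnajb1, 173 and 251 FPKM. Coq10b near Hspd1 measured 15.3 and 12.3 FPKM and 9030425E11Rik near Hspa8 22.9 and 21.9 FPKM.

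**Figure D2:**
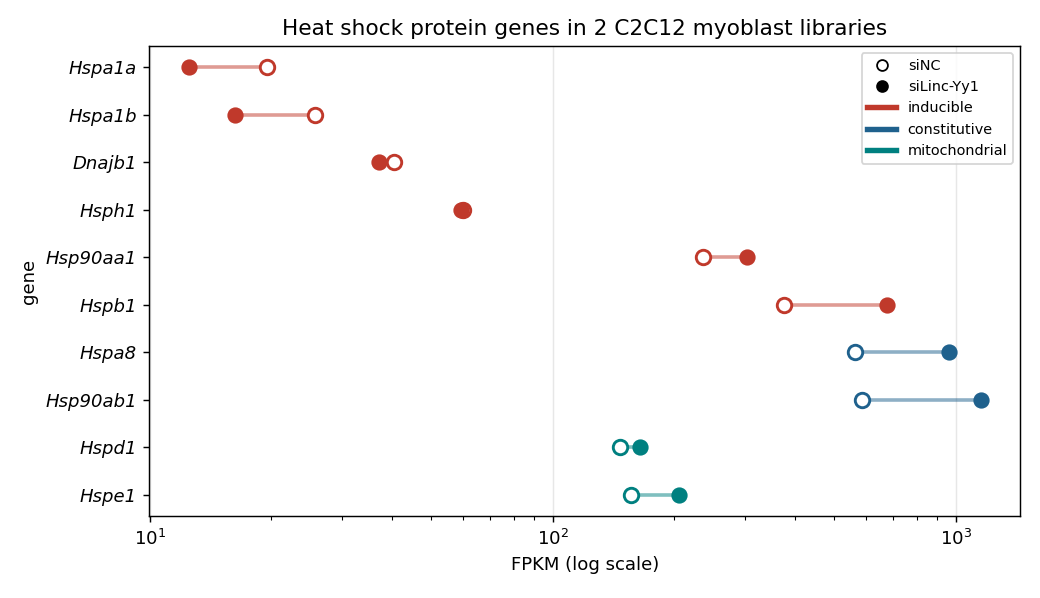
FPKM (log scale) of the 10 genes in siNC (open circles) and siLinc-Yy1 (filled circles), 1 library each and without error bars as there are no replicates, coloured by group. Hspa1a and Hspa1b lie to the left in siLinc-Yy1 (12.5 and 16.3 FPKM), Dnajb1 and Hsph1 nearly coincide, and Hsp90ab1 and Hspa8 lie farthest to the right.

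The 10 genes kept the same order of level in both libraries, from Hsp90ab1 at the top through Hspa8, Hspb1, Hsp90aa1, Hspe1, Hspd1, Hsph1, Dnajb1 and Hspa1b down to Hspa1a. Without replicates, whether neighbours in this order such as Hspe1 and Hspd1 differ beyond their spread was not tested. The distance between top and bottom widened, from 30.05-fold in siNC to 92.3-fold in siLinc-Yy1. The summed level of the 10 genes was 2208 and 3589 FPKM, which was 0.604% and 0.785% of all FPKM in the table.

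The makeup of both cytosolic families differed between the libraries. Hspa1a and Hspa1b together made up 7.44% of the cytosolic HSP70 FPKM (these 2 genes and Hspa8) in siNC and 2.91% in siLinc-Yy1. Hspa8 stood at 12.4 times their sum in siNC and at 33.4 times in siLinc-Yy1. Within HSP90, Hsp90aa1 made up 28.7% in siNC and 20.8% in siLinc-Yy1, and Hsp90ab1 stood at 2.49 and 3.80 times Hsp90aa1. In both families the inducible form had the smaller share in siLinc-Yy1, and these shares do not depend on the scaling between libraries. The more abundant form had the higher ratio in both families, and abundant rows as a whole did so too, as given next.

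**Figure D3:**
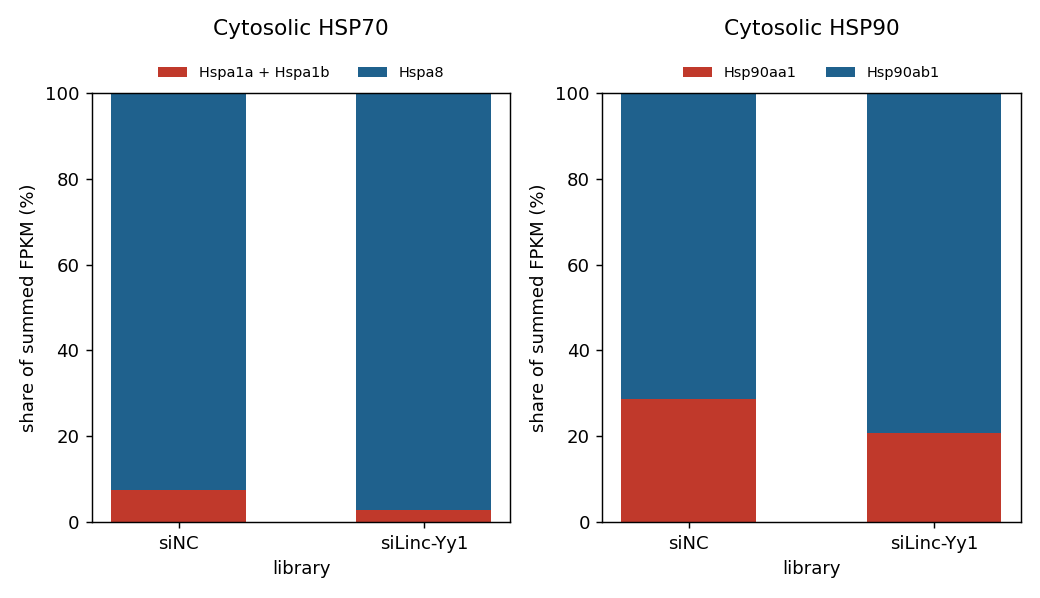
Share of summed FPKM (%) of the inducible (red) and constitutive (blue) genes of cytosolic HSP70 and cytosolic HSP90 in each library, 1 library per bar. The inducible share goes from 7.44% to 2.91% for HSP70 and from 28.7% to 20.8% for HSP90.

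In 4 ranges of mean FPKM that hold the 10 genes, the median fold change of all rows was higher the more abundant the range. Among the 10 genes, the level in siNC and the log2 fold change had a Spearman correlation of 0.964, which describes genes of 1 pair of libraries and carries no p-value. Over all 11792 rows it was 0.418, and over the 4481 rows of at least 20 FPKM in siNC it was 0.571. The median log2 fold change was -0.040 among 3914 rows with a mean of 10 to 30 FPKM, where Hspa1a and Hspa1b lie. It was 0.084 among 2135 rows of 30 to 80 FPKM, where Dnajb1 and Hsph1 lie, and 0.35 among 315 rows of 140 to 300 FPKM, which take in Hspd1, Hspe1 and Hsp90aa1. Among the 156 rows of 300 to 1000 FPKM, with Hspb1, Hspa8 and Hsp90ab1, it was 0.71, and 18 of them were at least 2-fold higher.

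Set against rows of like level, the abundant chaperones lost most of their excess and Hspa1a and Hspa1b stayed low. The level trend is the running median of each row with the 150 rows on either side of it in order of mean FPKM. Less this trend, Hsp90ab1 stood at 0.25, Hspb1 at 0.18, Hspa8 at 0.058 and Hspe1 at 0.044. Hsp90aa1 (-0.12), Hsph1 (-0.15), Hspd1 (-0.15) and Dnajb1 (-0.17) lay below the trend. Hspa1a was at -0.55 and Hspa1b at -0.60, the 0.568th and 0.475th percentiles of all rows less the trend. The Spearman correlation of the values less the trend with the level in siNC was still 0.952 among the 10 genes. It was -0.048 over all 11792 rows and 0.013 over the 4481 rows of at least 20 FPKM in siNC. With 50 rows on either side, which follows the trend more closely at the highest levels, Hsp90ab1 was at 0.067, Hspb1 at 0.12 and Hspa8 at -0.089. The median of the inducible genes less the trend was -0.16, with 5 of 6 below the trend. By its making, about as many of all rows lie below a running median as above it. Hspa1a and Hspa1b, among the 5, are near-identical copies and not independent cases. For the constitutive pair the median less the trend was 0.15, and -0.011 with 50 rows on either side, so its direction turned there.

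**Figure D4:**
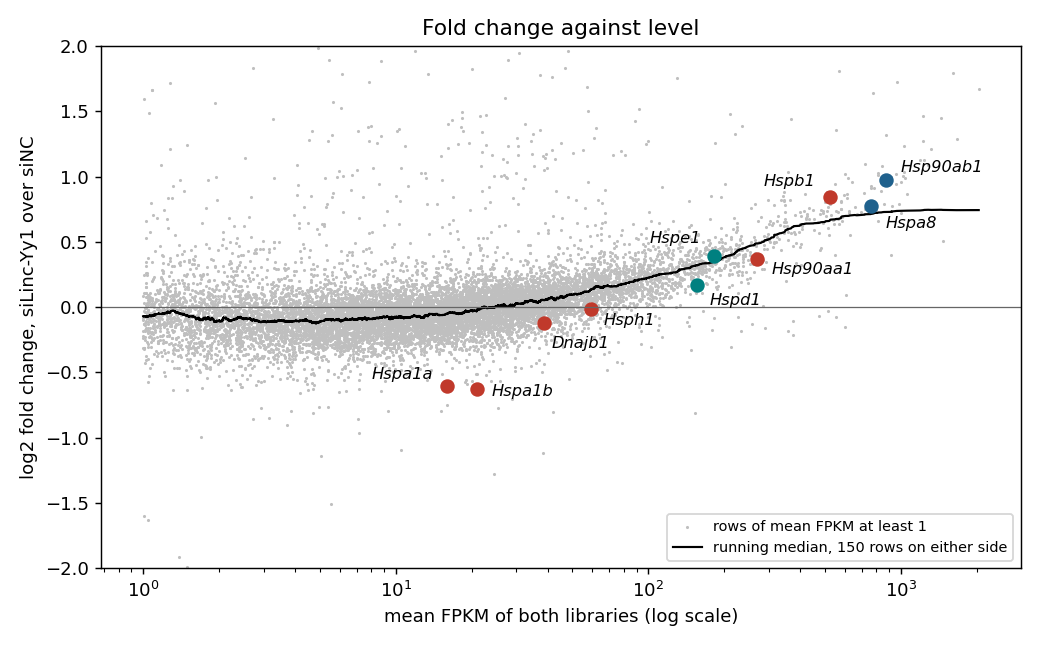
Log2 fold change (siLinc-Yy1 over siNC, 1 FPKM added) against mean FPKM (log scale) for rows of mean FPKM at least 1 (grey), with their running median over 150 rows on either side (line) and the 10 genes (coloured by group as in the plot of FPKM by library). The axis stops at 2 in both directions, which leaves 40 rows outside. Hspa1a (-0.60) and Hspa1b (-0.63) lie well below the line, while Hspa8 and Hsp90ab1 lie near it at the abundant end.

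Over 9 other chaperone lists, 110 of 121 listed genes passed the filter, of which 62 were higher (45.4% of all rows) and 48 lower (54.6% of all rows), with a median log2 fold change of 0.029. With 1 FPKM added, none was 2-fold changed, 2 were at least 1.5-fold higher (3.28% of all rows) and none was 1.5-fold lower, where 0.517% of all rows were. With 0.1 FPKM added, 1 gene was 2-fold higher, beside 197 of all rows. The authors' deposited table called 1 of them, Cct6b, where 1.62% of all rows of status OK were called and 1.29% were called higher. The lowest value among the 110 was that of Hspa1l.

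Of the heat shock factors, Hsf1, the main activator of the inducible genes, stood at 46.0 FPKM in siNC against 53.5 FPKM in siLinc-Yy1. Hsf2 measured 11.5 and 9.41 FPKM and Hsf4 3.68 and 3.17 FPKM. Hsbp1, a small protein that binds HSF1, measured 83.3 and 97.0 FPKM. Hsf3 was listed at 0 in both libraries and Hsf5 stayed below the filter. Of the 4 genes of this list that passed it, Hsf1 and Hsbp1 were higher and Hsf2 and Hsf4 lower. Hsbp1 counts in this list and its median although it is not a factor itself. The RNA level of a factor says nothing of its activity.

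Among 7 other HSP70 and HSP110 genes, 2 were higher and 5 lower, with a median of -0.062. Hspa4, an HSP110 protein and the most abundant of them, measured 82.5 and 91.3 FPKM, and its relative Hspa4l 26.7 and 25.4 FPKM. Hspa12a measured 13.5 and 11.5 FPKM. The 18 J-domain genes past the filter divided into 8 higher and 10 lower, with a median of -0.017, which turned to 0.0038 when centred on the median row. Dnajc8 (118 and 145 FPKM), Dnajb6, which suppresses aggregation (83.7 and 96.5 FPKM), Dnajc5, a vesicle protein (27.3 and 32.2 FPKM), and Dnajc24 (13.3 and 11.4 FPKM) had the largest values in either direction.

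Partners of HSP70 were higher in 7 of 10 cases, with a median of 0.13 that turned to -0.18 under rescaling to equal sums. Stip1, which passes clients from HSP70 to HSP90, measured 186 and 258 FPKM, a log2 fold change of 0.47 and 0.051 less the level trend. St13 measured 142 and 175 FPKM, Bag6 79.0 and 96.7 FPKM, and Bag5, an exchange factor, 16.5 and 13.6 FPKM. Partners of HSP90 were higher in 8 of 19 cases, with a median of -0.056. The most abundant was Nudc (159.8 and 199 FPKM), and Fkbp4, a partner for steroid receptors, measured 124 and 144 FPKM. Cdc37, which brings kinases to HSP90, measured 85.1 and 98.8 FPKM and its relative Cdc37l1 9.07 and 7.41 FPKM.

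Small heat shock proteins other than Hspb1 passed the filter in 4 of 8 cases, 3 higher and 1 lower. The most abundant was Cryab, alpha-B crystallin, at 139 FPKM in siNC against 184 FPKM in siLinc-Yy1. Hspb2, a muscle gene, measured 29.1 and 39.1 FPKM, a log2 fold change of 0.41 and 0.36 less the level trend. Hspb6 measured 23.8 and 26.1 FPKM and Hspb8, the partner of Bag3 in muscle, 46.7 and 45.5 FPKM. The median of these 4 was 0.26, and -0.054 under rescaling to equal sums.

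In mitochondria, 10 of 17 other chaperones and proteases were higher and 7 lower, with a median of 0.017 that turned to -0.30 under rescaling to equal sums. Hspa9, the mitochondrial HSP70, measured 154 and 212 FPKM, a log2 fold change of 0.46 beside 0.39 for Hspe1 and 0.17 for Hspd1. Less the level trend these values were 0.11, 0.044 and -0.15. The protease Lonp1 measured 56.9 and 66.8 FPKM, Clpx, the unfoldase of another protease, 9.92 and 8.49 FPKM, and Trap1, the mitochondrial HSP90, 62.9 and 70.9 FPKM.

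The cytosolic chaperonin TRiC, which folds actin and tubulin, and prefoldin, which hands it clients, were higher in 12 of 14 cases. Their median of 0.19 turned to -0.13 under rescaling to equal sums and to -0.078 less the level trend. Cct5 measured 207 and 268 FPKM, Cct2 195 and 264 FPKM and the prefoldin subunit Vbp1 16.8 and 13.2 FPKM. Cct6b, a copy of the Cct6 subunit gene known from testis, was scarce at 0.636 and 1.63 FPKM and was called higher in the authors' deposited table (q-value of 0.000314). Its log2 fold change was 0.68 with 1 FPKM added, while the authors' deposited table gave 1.36 with none.

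Endoplasmic reticulum chaperones, which answer to another stress pathway, were higher in 10 of 17 cases, with a median of 0.079 that turned to -0.24 under rescaling to equal sums and to -0.073 less the level trend. Hsp90b1, the HSP90 of this compartment, measured 230.2 and 289 FPKM, close to Hsp90aa1 in level and in ratio. Calr, a lectin chaperone, measured 372 and 614 FPKM, much like Hspb1 at the same level. Pdia6, a disulfide isomerase, measured 130.4 and 164 FPKM and Manf, a secreted stress protein, 60.8 and 80.2 FPKM. Unlike the 10 members, Pdia6 and, of the lists above, Trap1 and Dnajb6 each share their locus with another row.

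**Figure D5:**
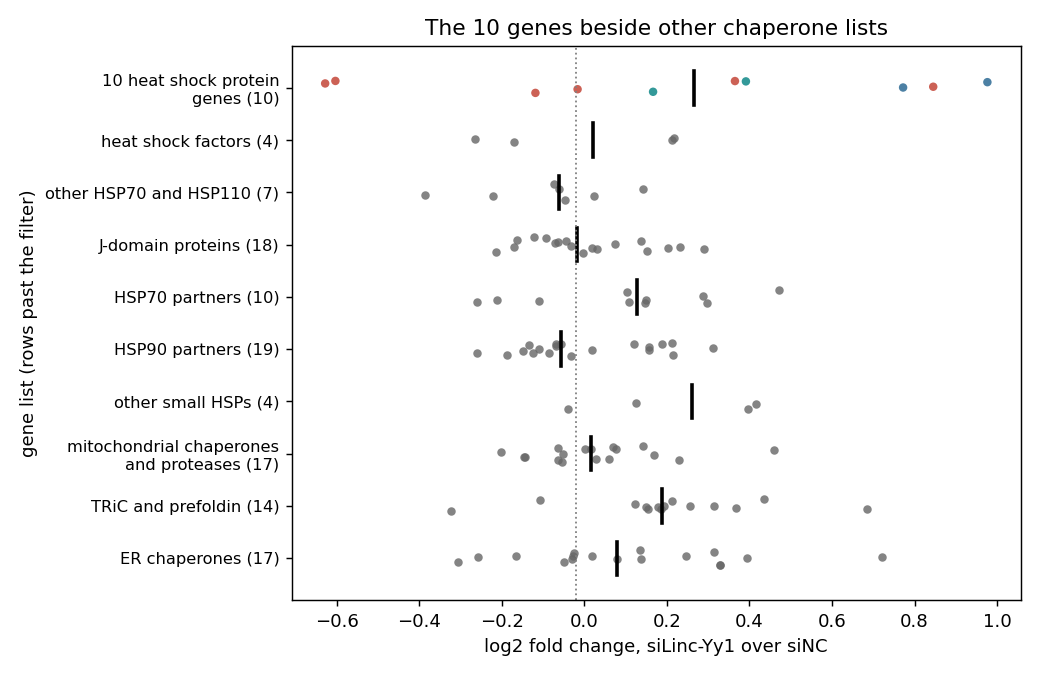
Log2 fold change (siLinc-Yy1 over siNC, 1 FPKM added) of the 10 genes (coloured by group as in the plot of FPKM by library) and of 9 other chaperone lists (grey, 1 point per gene), with the number of genes in brackets, list medians as bars and the median of all rows (-0.021) as a dotted line. Hspa1a and Hspa1b are the lowest points; medians of the 10 genes and of 6 lists turn negative under rescaling to equal sums.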

How the data were processed

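The authors' deposited table gives FPKM per gene and condition from Cuffdiff, per the file headers, in 2 identical copies of which 1 was read. Each row also carries a p-value and a q-value of the authors' own Cuffdiff test, per the file headers, and the score column test_stat was deposited by the authors and not used here. The deposited log2 fold change differed from the ratio of the FPKM columns by at most 2.4e-05 where both were above 0 and status was not FAIL. The header's siNC and siLinc-Yy1 were taken as the first and second FPKM column. Build mm9, Cuffdiff 2.0.4, Cufflinks 2.1.1 and TopHat2 2.0.4 appear in the submitters' processing notes. The annotation, strand setting and scaling between libraries were not given in the sources used here.

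Log2 fold changes used a pseudocount of 1 FPKM, which understates changes of low genes, and rows of mean FPKM at least 1. Fragments were estimated from the commonest FPKM step in single-exon receptor rows, which puts the siNC library near a depth of 59.6 M and siLinc-Yy1, whose values are thus less precise, near 42.6 M if no further scaling was applied. Members, lists and settings were chosen with earlier results of these data known. Named were all members, and per list the 4 largest changes and the highest level. Neighbours were to be named where they share a member's locus; none did, and naming all rows past the filter within 20 kb was decided after their values were seen. Alternatives were pseudocounts of 0.1 and 5, no filter or at least 5 FPKM, rescaling to equal sums, centring, running medians, rows of status OK, a fold of 1.5 and the authors' calls. Python 3.11.15, pandas 2.3.3 and scipy 1.17.1 were used.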

Additional observations from a re-analysis of the deposited data

How the results depend on the processing

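Of 228 log2 values recomputed under alternatives, 200 kept their direction and stayed on the same side of 2-fold, among them 91 of 98 values of single members and all of those of Hspa1a and Hspa1b. No choice of rows by filter or status can move the value of a single gene, and summing Hspa1a and Hspa1b cannot move the other members. Such settings count among the 98, so the share that kept its direction overstates stability. Rescaling to equal summed FPKM, which lowers every gene, reversed Hspd1 (-0.15) and the medians of the members (-0.055), the mitochondrial pair (-0.042), heat shock factors (-0.26), HSP70 partners (-0.18), small heat shock proteins (-0.054), mitochondrial chaperones and proteases (-0.30), TRiC and prefoldin (-0.13) and endoplasmic reticulum chaperones (-0.24). Subtracting the running median with 150 rows on either side reversed Hsp90aa1 (-0.12), Hspd1 (-0.15) and the medians of the members (-0.14), the mitochondrial pair (-0.055), heat shock factors (-0.026), TRiC and prefoldin (-0.078) and endoplasmic reticulum chaperones (-0.073). With 50 rows on either side it reversed Hspa8 (-0.089), Hsp90aa1 (-0.11), Hspd1 (-0.14) and the medians of the members (-0.12), the constitutive pair (-0.011), the mitochondrial pair (-0.049), heat shock factors (-0.028), TRiC and prefoldin (-0.061) and endoplasmic reticulum chaperones (-0.083). Centring reversed Hsph1 (0.0047) and the J-domain median (0.0038), and no filter reversed the latter (0.0078).

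The count of members went from 0 to 3 higher and 2 lower at 1.5-fold and to 2 lower by the authors' calls. The other lists went from 0 to 2 higher at 1.5-fold, to 1 by the authors' calls and to 1 at a pseudocount of 0.1. Over all rows the 164 higher and 21 lower became 109 and 7 at a pseudocount of 5, 89 and 38 under rescaling, and 387 and 61 at 1.5-fold. The lower count became 39 without a filter and 7 at 5 FPKM or more. Rescaling moved the share of higher among 2-fold changed rows from 88.6% to 70.1%. No paired analysis was possible because each condition has 1 library and the result comes from no test. For members with introns the fragments behind a value were not estimated.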
